A study of Mus musculus with 18 samples.

Results

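Polysome loading beyond total mRNA was compared between LPS-stimulated RAW264.7 cells with and without torin1, which used 12 of the 18 libraries of the series. RAW264.7 is a transformed mouse macrophage line, so these are fast-growing cells rather than primary macrophages. One group was given 500 ng/mL LPS for 6 h, and LPS is a bacterial cell wall lipid that activates macrophages through TLR4. In the other group 100 nM torin1, an inhibitor of the kinase mTOR, was added 15 min before the same LPS exposure. Both groups were grown in dishes to 80% confluency and lysed with cycloheximide, which holds ribosomes on mRNA. Each of the 3 numbered experiments gave 1 lysate per group, and each of the 6 lysates yielded paired libraries, 1 from total mRNA and 1 from the heavy polysome fractions, which had been combined. Polysome loading was taken as log2 CPM, the count scaled to library size, of polysome-associated mRNA minus that of total mRNA in the same lysate. The torin1 effect on loading was the loading in the torin1 lysate minus that in the LPS lysate of the same experiment number, so a negative value means that polysome-associated mRNA fell further, or rose less, than total mRNA. All values are relative to the other mRNAs of a library, and a fall in polysomes that touched every mRNA alike cannot be seen in them.

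mTOR complex 1 joins growth signals to protein synthesis, in part by acting on 4E-BPs, which hold back the cap-binding factor eIF4E, and on LARP1, which binds the 5′ ends of a particular mRNA family. That family is the TOP mRNAs, which begin with a cytosine followed by a run of pyrimidines (C or T) and encode ribosomal proteins and a number of translation factors. When mTOR is inhibited, TOP mRNAs are known to leave polysomes while remaining in the cell.

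To show what such a start looks like, 30 bases around the annotated start are given for 7 genes on which the results below turn. They are written 5′ to 3′ on the strand that reads as the mRNA, from RefSeq on GRCm38.p6. The first 15 bases lie upstream of the gene and base 16 is the first base of exon 1, in the 5′ UTR. Capitals mark an unbroken run of at least 5 C or T that begins exactly at that base.
Rps27: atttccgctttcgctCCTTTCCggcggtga
Rps18: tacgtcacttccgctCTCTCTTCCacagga
Rps19: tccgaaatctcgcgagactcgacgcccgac
Rplp2: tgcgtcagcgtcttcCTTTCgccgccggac
Rpl28: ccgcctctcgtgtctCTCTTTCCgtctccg
Eef1a1: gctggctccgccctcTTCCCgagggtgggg
Tpt1: gtcaccgctgacgacagttccgggggagcc
These windows are chr3:90213634-90213663 (minus strand) for Rps27, chr17:33955651-33955680 (minus) for Rps18 and chr7:24884577-24884606 (plus) for Rps19. Those of the other genes are chr7:141447636-141447665 (plus) for Rplp2, chr7:4792950-4792979 (plus) for Rpl28, chr9:78481710-78481739 (minus) for Eef1a1 and chr14:75845241-75845270 (plus) for Tpt1. Rps27, Rps18, Rplp2, Rpl28 and Eef1a1 had the run at the annotated start and Rps19 and Tpt1 did not, although an annotated start need not be the base that these cells use.

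Libraries held 30422715 to 47725557 counts over 11243 genes. Of 11 macrophage markers fixed for a check of the cells, 10 were counted, at 17.1 to 12332 CPM, and Mertk was not in the table. S100a8 at up to 7.10 CPM and Cdh5 at up to 1.33 CPM were the only markers of other cell types counted. The GC content of an mRNA was correlated with its loading in all 6 lysates, with Spearman coefficients from 0.298 to 0.638 across 11112 genes, and the torin1 effect followed GC content with −0.618 in experiment 1, 0.169 in experiment 2 and −0.290 in experiment 3. Genes are not independent replicates and these values share library and depth, so they are descriptions. Values with the GC trend of each library removed are given beside the ribosomal and TOP classes, and for some of the other classes. Whether GC content had a part in these results beyond that was not tested.

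Of the 34 gene classes examined, the proteins of both cytosolic ribosomal subunits had the lowest means. The median torin1 effect over 80 ribosomal protein genes was −0.63, −0.35 and −0.70 in experiments 1 to 3, a mean of −0.56 ± 0.18 (SD, n = 3), against 0.01 ± 0.02 over all genes. This equals polysome loading at 0.678 of its level with LPS alone. The effect was below 0 in all 3 experiments in 67 of the 80, which compares with 13.9% of all genes, and in none of them was it above 0 in all 3 (14.8% of all genes). In 55 of the 80 the 3 torin1 lysates all lay below the 3 LPS lysates, against 3.5% of all genes, and in 0 of the 80 they all lay above (2.17%). In total mRNA the mean log2 changes of these genes lay between −0.40 and 0.20.

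**Figure D1:**
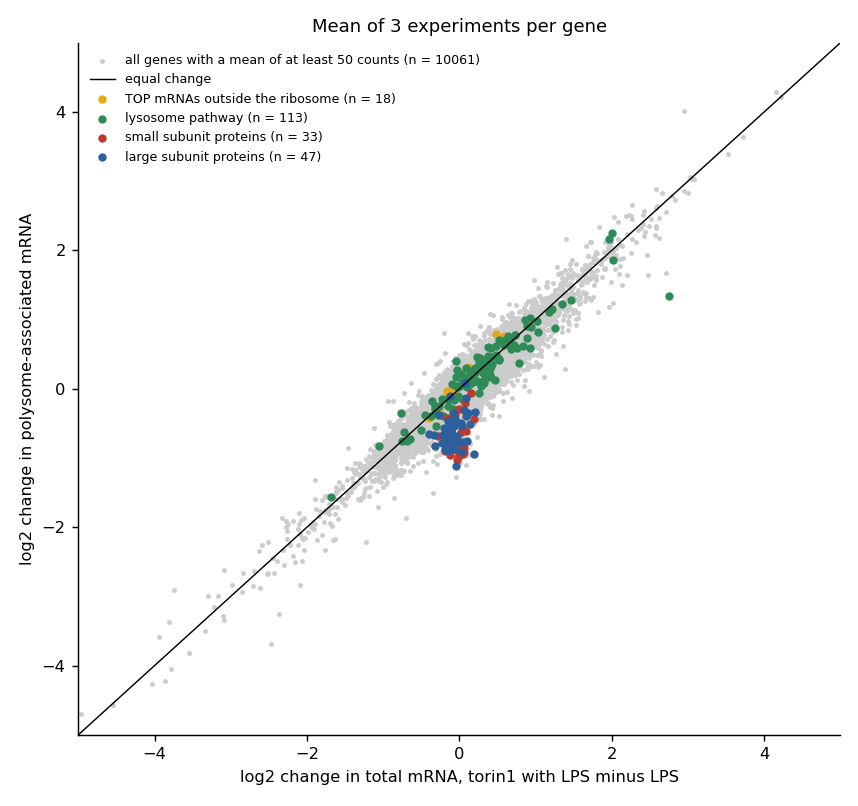
Each point is a gene, with the mean log2 change in total mRNA (x axis) and in polysome-associated mRNA (y axis) over 3 experiments, torin1 with LPS minus LPS, and the line marks equal change. The 80 ribosomal protein genes (red and blue) form a cloud near 0 on the x axis, with 78 of them below the line, whereas lysosome pathway genes (green) lie along it.

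Gene by gene, edgeR's quasi-likelihood test of the interaction of RNA type and torin1, with each lysate as a block, passed 5 genes, all lower (0.0445% of 11243). The thresholds were those of the study's methods, an adjusted p of at most 0.25 and a fold of at least 1.2, and all 5 had an adjusted p of 0.215. These were Rps27, Rps18, Rps19 and near-identical copies of the first pair named Rps27rt and Rps18-ps3, so 3 members of the ribosomal protein list were called. No gene was called higher. At an unadjusted p under 0.05 there were 158 lower and 45 higher genes, which is 1.41% and 0.4% of those tested, and 61 of the 158 were ribosomal protein genes.

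Because same-numbered libraries of either RNA type deviated together, the fit was also run with the experiment number as a block for each RNA type. In loading itself the deviations of same-numbered lysates had correlations of −0.039, 0.282 and 0.387, so none was seen in experiment 1. This fit called 47 genes, 46 lower (0.409%) and 1 higher (0.00889%), among which were all 5 above and 37 of the 80 ribosomal protein genes. Without any block edgeR called 0 genes, with 85 at an unadjusted p under 0.05, and DESeq2 with the lysate block called 42. DESeq2 gave no adjusted p to 8937 of the 11243 genes, so its count covers fewer genes than those of edgeR. In the lysate-block fit of edgeR the number called rested on single lysates. Without experiment 1 or experiment 3 it was 0, and likewise 0 without any one of the 3 LPS lysates or without the torin1 lysate of experiment 1 or 3, whereas without experiment 2 it was 39 and without the torin1 lysate of experiment 2 it was 319. With the GC trend removed the lysate-block fit called 30 genes, 25 of them ribosomal protein genes, and the fit with the experiment block called 77, 53 of them ribosomal protein genes.

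Rps27, a small protein of the 40S subunit, stood at 968, 746 and 672 CPM in polysomes of the LPS lysates and at 422, 419 and 378 CPM in those of the torin1 lysates. Its total mRNA was at 455, 333 and 326 CPM with LPS and at 358, 360 and 297 CPM with torin1. The polysome values did not overlap between groups, and the total values did. The torin1 effect on its loading was −0.83 ± 0.12 (log2, SE, adjusted p = 0.215 in edgeR's quasi-likelihood test), and 0.0268 with the experiment block.

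Rps18, a protein of the head of the 40S subunit, had 539, 424 and 443 CPM in polysomes with LPS and 259, 300 and 211 CPM with torin1. Its total mRNA was at 326, 305 and 291 CPM against 310, 335 and 279 CPM. Again polysome values separated the groups and total values did not, and the torin1 effect was −0.88 ± 0.13 (SE). Rps19, whose gene is mutated in an inherited anaemia, had 532, 421 and 497 CPM in polysomes with LPS and 246, 275 and 211 CPM with torin1, with no overlap. Its total mRNA was at 400, 352 and 386 CPM with LPS and at 351, 405 and 362 CPM with torin1, and the torin1 effect was −0.96 ± 0.13 (SE). Rps27rt, at −1.05 ± 0.15, and Rps18-ps3, at −1.19 ± 0.19, share sequence with Rps27 and Rps18, so how reads were divided between a gene and its copy is uncertain. Of the 80 genes, 61 have at least 1 pseudogene of their name in the GENCODE annotation, and another 27 counted symbols are named like a ribosomal protein.

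In the 40S subunit, the median torin1 effect over 33 proteins was −0.64 ± 0.20 (SD, n = 3). Median loading was 0.57, 0.46 and 0.45 in the LPS lysates and −0.11, 0.09 and −0.25 in the torin1 lysates, so mRNAs that had been over-represented in heavy polysomes came to the level of the average mRNA. Of the 33, 29 were lower in all 3 experiments, 3 were called in the lysate-block fit and 19 with the experiment block. Rps14 was the lowest member, with effects of −1.04, −0.76 and −1.20. In polysomes it had 1879, 1448 and 1289 CPM with LPS and 830, 913 and 540 CPM with torin1, with no overlap, whereas its total mRNA was between 644 and 743 CPM in all 6 lysates. Rps12 and Rps15 were at −0.99 and −0.98, each lower in every experiment and called with the experiment block. Rps6, the substrate of S6 kinase, was at −0.44 ± 0.17 and Rps3 at −0.42 ± 0.07, lower in all 3 experiments but not called in either fit. At the other end stood Rps16, at −0.21 ± 1.00, with effects of −1.24, −0.13 and 0.75 that differed in sign.

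The 60S subunit was similarly placed, with a median of −0.51 ± 0.15 (SD, n = 3) over 47 proteins. Median loading was 0.63, 0.45 and 0.51 with LPS and 0.03, 0.10 and −0.13 with torin1. Here 38 of the 47 were lower in all 3 experiments, none was called in the lysate-block fit and 18 were called with the experiment block. Rplp2, a protein of the stalk that recruits elongation factors, was the lowest at −1.14 ± 0.86, but its effects of −1.77, −0.16 and −1.48 show how far experiment 2 stood from the others. Its partner Rplp1 was at −1.63, 0.07 and −1.29, and Rpl36 at −2.33, 0.61 and −1.48. Rpl28 was steadier at −0.99, −0.63 and −0.72. In polysomes Rpl28 had 218, 275 and 215 CPM with LPS and 139, 182 and 103 CPM with torin1, with an adjusted p of 0.0284 in edgeR's fit with the experiment block. Rpl32 and Rpl37, both at −0.81, were also lower in every experiment and called in that fit.

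A few large subunit proteins had a mean effect that was small or near 0. Rpl3 and Rpl5, which are among the longer ribosomal proteins and include the 5S RNA-binding one (Rpl5), had torin1 effects of 0.01 ± 0.12 and 0.03 ± 0.24 (SD, n = 3). Both were above 0 in experiment 1 only, at 0.15 for Rpl3 and 0.31 for Rpl5. In experiments 2 and 3 Rpl3 was at −0.08 and −0.03, and Rpl5 at −0.14 and −0.09. For Rpl5, polysome-associated mRNA was at 533, 385 and 486 CPM with LPS and at 499, 370 and 441 CPM with torin1. Total Rpl5 mRNA was at 644, 482 and 463 CPM against 486, 508 and 447 CPM, so the groups overlapped in both RNA types. Rpl4, at −0.22 ± 0.17, was lower in all 3 experiments by small amounts.

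**Figure D2:**
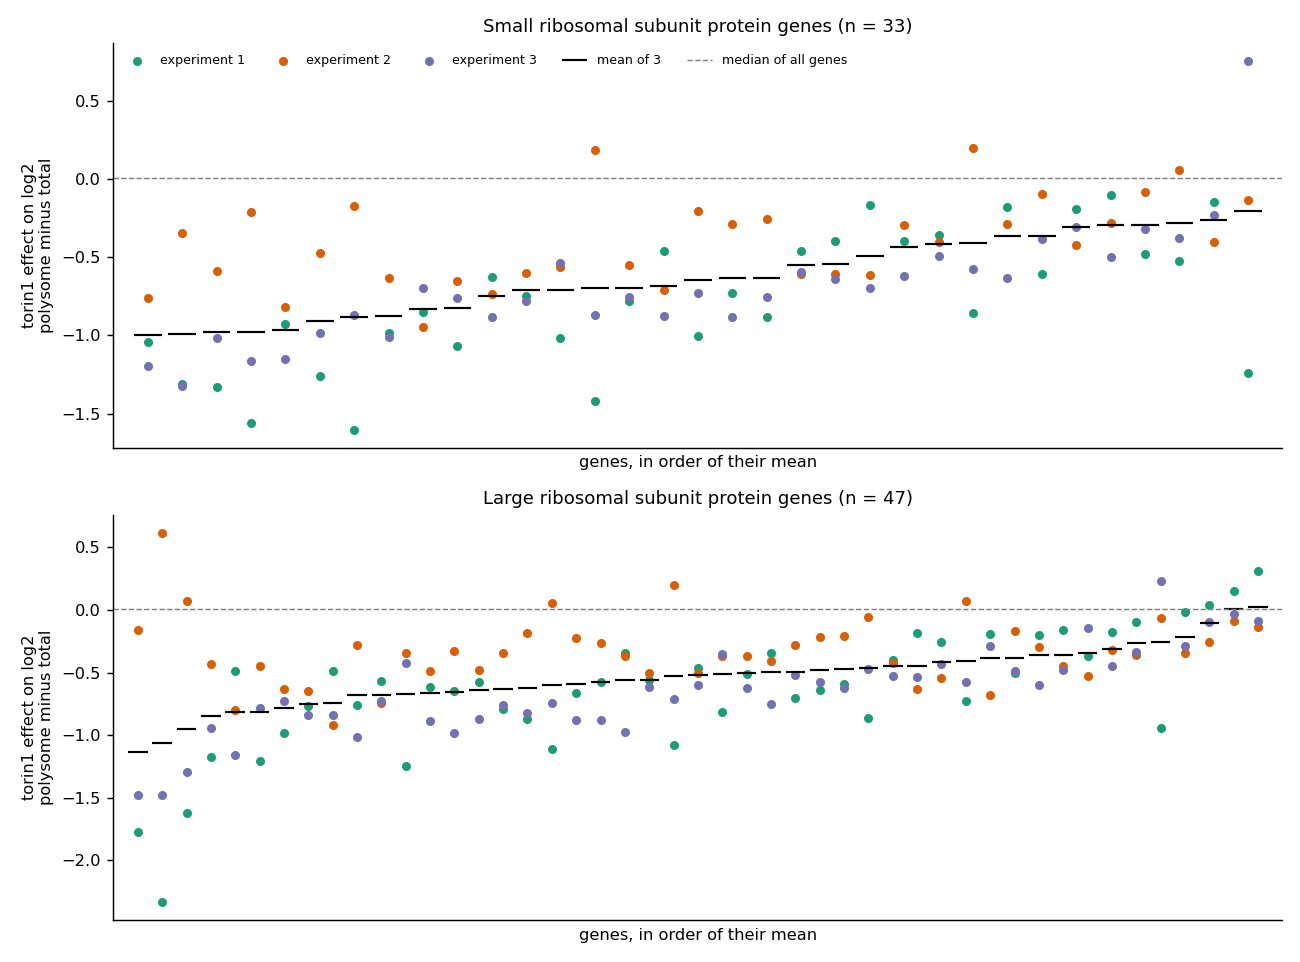
The torin1 effect on log2 polysome minus total (y axis) is shown for every ribosomal protein gene (x axis, in order of the mean) in each of 3 experiments (points) with its mean (bar), small subunit above and large subunit below, and the dashed line is the median of all genes. Nearly all points lie below the line, 67 of 80 genes have all 3 below 0, and experiment 2 gives the highest point for many of the lowest genes.

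Other TOP mRNAs had a class median near 0, with members on both sides of it. Over 18 TOP genes outside the ribosome the median was 0.18, −0.12 and −0.03 in experiments 1 to 3, a mean of 0.01 ± 0.15 (SD, n = 3), and with GC removed −0.03 ± 0.08. None of the 18 was called in the lysate-block fit and 1, Tpt1, was called with the experiment block. DESeq2 called Tpt1 too, as did the lysate-block fit of all 18 libraries. Tpt1, which encodes the abundant growth-associated protein TCTP, had 200, 204 and 218 CPM in polysomes with LPS and 139, 146 and 134.8 CPM with torin1. Its total mRNA was at 306, 345 and 278 CPM against 303, 340 and 319 CPM, so polysome values separated the groups and the torin1 effect was −0.62 ± 0.24 (SD). Naca, Eif3f, Eif3h and Eef1b2, from −0.30 to −0.20, were also lower in all 3 experiments, and the loading of none of them overlapped between groups, but none was called in either fit. With Tpt1 these make 5 of 18 genes (27.8%) with lower loading and no overlap, against 3.5% of all genes, and 3 of the 18 (16.7%) had an unadjusted p under 0.05 and were lower, against 1.41%. Naca was called when the GC trend was removed and the experiment block kept.

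Eef1a1, which delivers aminoacyl-tRNA to the ribosome, had 7181, 4882 and 6145 CPM in polysomes with LPS and 7998, 7134 and 7218 CPM with torin1, and 9399, 7444 and 7105 against 8456, 9500 and 7892 CPM in total mRNA. Its torin1 effect was 0.19 ± 0.11 (SD, n = 3), above 0 in every experiment and not called. Eef2, the translocase, was at −0.53, 0.86 and 0.20, and Pabpc1, the poly(A)-binding protein, at 0.19, −0.33 and 0.24, with signs that differed. Vim, encoding the intermediate filament vimentin, was the highest of the 18 at 0.31 ± 0.25 (SD). In polysomes it had 591, 612 and 621 CPM with LPS and 934, 1242 and 1010 CPM with torin1, and in total mRNA 1310, 1422 and 1269 against 1753, 1915 and 1931 CPM.

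Coding length separated the genes that were lowest from those that were not. Ribosomal proteins with coding sequences of up to 500 bases had a median effect of −0.67 ± 0.16 (n = 49 genes, SD over 3 experiments) and those of over 500 and up to 1000 bases −0.45 ± 0.16 (n = 29). Across the 80 genes the Spearman coefficient between coding length and the mean effect was 0.573, and shorter ribosomal protein genes also had lower counts (0.482 between length and mean count). Among TOP genes outside the ribosome the 6 in that middle range were at −0.17 ± 0.13 and the 12 longer ones at 0.08 ± 0.11. The same order held for the remaining genes at a much smaller size, with −0.08 ± 0.06 for 967 genes of up to 500 bases, −0.02 ± 0.02 for 2576 in the middle range and 0.03 ± 0.04 for 7452 longer ones. With both the GC and the coding length trend of each library removed, the 40S median was −0.49 ± 0.12 and the 60S median −0.39 ± 0.14.

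**Figure D3:**
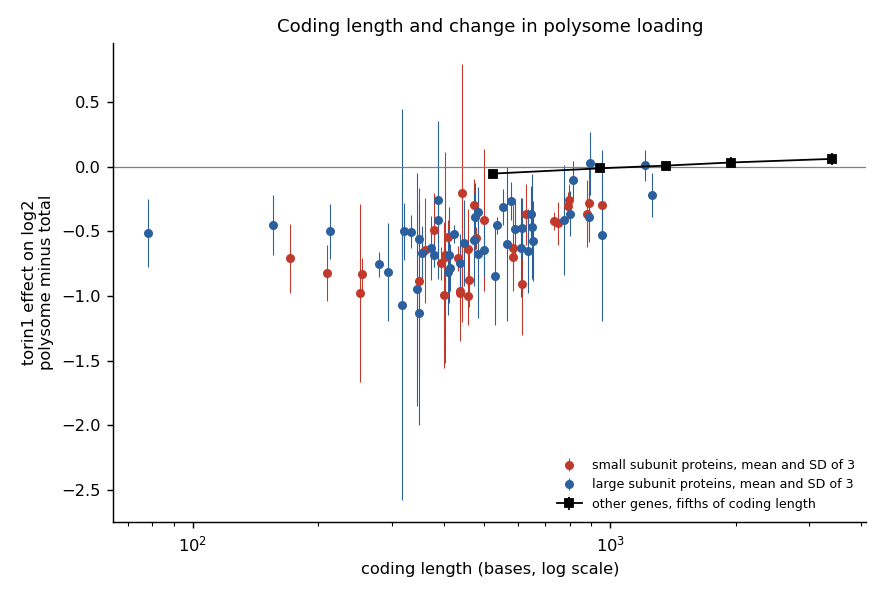
Coding length in bases (x axis, log scale) is plotted against the torin1 effect on log2 polysome minus total (y axis), with the mean and SD of 3 experiments for each ribosomal protein gene and, as black squares, the median and SD of other genes in bins of coding length with equal numbers of genes. Most ribosomal protein genes lie below other genes of like length, and those near 0 are among the longer ones.

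Within the ribosomal protein genes, a run at the annotated start did not go with a larger effect. An annotated start need not be the base in use, so this split cannot sort TOP from other mRNAs. A run of 5 C or T at the first 5 transcribed bases was present in 17 of the 59 ribosomal protein genes that had a RefSeq entry (28.8%). It was present in 3.77% of the other counted genes with an entry and in 4.36% of all 27025 entries. The ribosomal protein genes with the run were at −0.58 ± 0.26 (SD, n = 3) and the 42 without it at −0.57 ± 0.16. Outside the ribosomal protein genes, 336 genes with the run were at 0.02 ± 0.05 and 8576 without it at 0.01 ± 0.02. Rps19, without the run, and Rps27 and Rps18, with it, were all called, and Eef1a1, whose run begins with T rather than C, was not.

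The torin1 effect on ribosomal protein mRNAs was nearly as large with the GC trend removed. Their median GC content was 51.8%, against 50.3% in all genes. Among other genes the 1102 lowest in GC content had median effects of 0.28, −0.05 and 0.11 in experiments 1 to 3, and the 1102 highest −0.73, 0.15 and −0.13. With the GC trend removed the 40S median was −0.57 ± 0.18 and the 60S median −0.48 ± 0.15. Rps27, Rps18 and Rps19 were still called in the lysate-block fit on those values, and Rplp2, which was not called in it (edgeR, adjusted p = 0.748), was called with the experiment block both before and after GC removal.

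**Figure D4:**
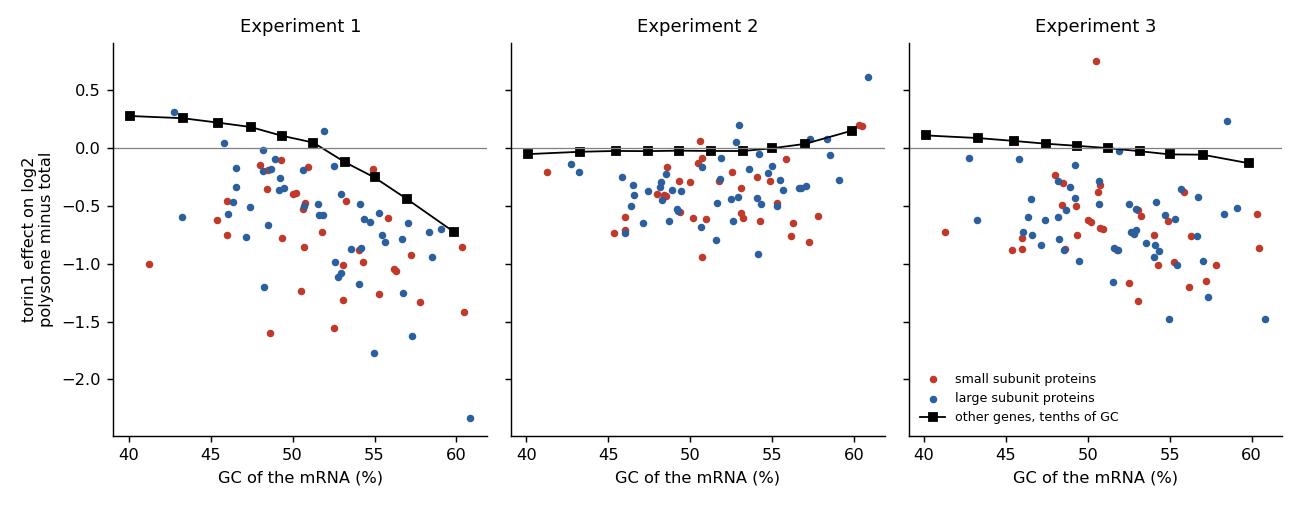
GC content of the mRNA in percent (x axis) is plotted against the torin1 effect on log2 polysome minus total (y axis) in each experiment, with ribosomal protein genes as points and the medians of other genes in 10 bins of GC content as black squares. The black line falls steeply in experiment 1, rises slightly in experiment 2 and falls slightly in experiment 3, and most ribosomal protein genes lie below it in all 3.

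Among the remaining 32 classes the means ran from −0.24 to 0.23, and 7 kept 1 sign in all 3 experiments with a mean larger than their SD. Other translation factors had a median of 0.07 ± 0.15 (34 genes), from Eif3k at −0.30 to Eif2s1 at 0.26, and none was called in either fit. Ribosome biogenesis genes, which make and assemble ribosomal RNA, were at 0.09 ± 0.09, from Rrp9 at −0.39 to Ddx21 at 0.26. Their median change was −0.39 in total and −0.35 in polysome-associated mRNA.

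Cytosolic tRNA synthetases, which charge tRNAs, had a median effect of 0.12 ± 0.14 (19 genes) while total mRNA was at −0.60 and polysome-associated mRNA at −0.52. Farsa was the lowest at −0.14. Qars, the glutaminyl-tRNA synthetase, was the highest at 0.49 and the only gene called higher with the experiment block (edgeR, adjusted p = 0.161). It had 144, 121 and 140 CPM in polysomes with LPS and 191, 183 and 192 CPM with torin1, while its total mRNA was at 149 to 172 CPM in all 6 lysates. The polysome values did not overlap, and the effects of 0.47, 0.45 and 0.54 were close to each other. In the lysate-block fit Qars was not called (edgeR, adjusted p = 0.796), but with the GC trend removed that fit did call it. DESeq2 with the lysate block called it too, whereas limma and the analysis of partial variance called 0 genes. Among the next genes by unadjusted p that were higher in every experiment, Gatad1, Megf9, Zbtb1 and Sgol2a had effects from 0.39 to 0.49, and none of these was called in either fit. Gatad1 was called with the experiment block when the GC trend was removed, and also with coding length removed as well.

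Nuclear-encoded respiratory chain subunits were slightly lower, at −0.11 ± 0.07 over 79 genes (SD, n = 3). In all 3 experiments 22 were lower and 6 higher, which is 27.8% and 7.6% beside 13.9% and 14.8% of all genes. Of the 79, 2 were called with the experiment block, Cox7a2l and Atp5g2, both chosen for mention after their values were seen. The first was also called by DESeq2, with all 18 libraries, and in the lysate-block fit with the GC trend removed. Cox7a2l, which takes part in assembling respiratory supercomplexes, had 160.6, 124.7 and 124.6 CPM in polysomes with LPS and 148, 146 and 130 CPM with torin1. In total mRNA it had 90.2, 91.6 and 84.3 CPM against 145, 155 and 134 CPM, so the groups were apart in total mRNA and overlapped in polysomes, and the effect on loading was −0.65. Atp5g2, a subunit of the ATP synthase ring, was at −0.55, Cox7a1 was the lowest at −0.66 on a mean of 87.5 counts, and Atp5b was the highest at 0.25. With GC and coding length removed the class median was −0.01 ± 0.03. Mitochondrial ribosomal proteins were at −0.07 ± 0.05 (76 genes, none called), from Mrpl14 at −0.73 to Mrpl42 at 0.30, and the 10 mitochondrially encoded genes at 0.23 ± 0.38, from mt-Co2 at 0.13 to mt-Nd6 at 0.39. For these 10 genes the value is a difference between libraries. Whether their mRNAs sat on ribosomes in the heavy fractions was not tested.

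The 47 genes called with the experiment block held 10 outside the ribosomal protein lists. Besides Tpt1, Qars, Cox7a2l, Atp5g2 and the copies Rps27rt and Rps18-ps3, these were Rpl22l1, a paralogue of Rpl22, at −0.57, Use1, a SNARE protein of retrograde transport, at −0.69, and the predicted genes Gm11808 and Gm2000 at −1.08 and −0.61.

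Lysosome pathway genes showed no shift as a class in the loading of the combined heavy fractions. Their median effect was −0.00 ± 0.02 over the pathway's genes (SD, n = 3), with 20 lower and 17 higher in all 3 experiments, which is 17.7% and 15% beside 13.9% and 14.8% of all genes. Their median change was 0.28 ± 0.07 in total and 0.26 ± 0.08 in polysome-associated mRNA, close to each other. The ends of the range were Ap1m2 at −1.40, on a mean of 17.8 counts, and Ctse at 0.45, and neither was called. V-ATPase subunits, which form the pump that acidifies lysosomes, were at −0.07 ± 0.09 (19 genes), from Atp6v1f at −0.37 to Atp6v0d2 at 0.24.

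Ctsd, the protease cathepsin D, was higher with torin1 in both RNA types. In polysomes it had 2603, 2451 and 2603 CPM with LPS and 4572, 4863 and 5766 CPM with torin1, and in total mRNA 1626, 1773 and 1895 against 2825, 3611 and 4446 CPM. Both RNA types separated the groups, and the effect on loading was −0.03 ± 0.05 (SD, n = 3). Lamp1, a major lysosomal membrane protein, was at −0.06 ± 0.10, Lamp2 at 0.06 ± 0.18, and the V-ATPase subunits Atp6v1h and Atp6v1d at 0.18 ± 0.21 and 0.15 ± 0.23. Ctsc (cathepsin C) was at 0.12 and Npc2 (cholesterol transfer) at −0.10, while Cln3, whose gene is mutated in Batten disease, was at −0.09. The metal transporters Slc11a1 and Slc11a2 were at −0.18 and −0.06, M6pr (sorting of lysosomal enzymes) at 0.07 and Cd63 at −0.08. The hydrolases Sgsh, Hyal1 and Galc were at −0.11, 0.13 and 0.11. The reference mRNAs Actb, Ppia and B2m were at −0.16, −0.14 and −0.06. None of these 18 genes was called in either fit. By qRT-PCR across uncombined fractions, the paper reports that LPS moved Lamp1, Atp6v1h and Atp6v1d mRNA to heavier polysomes, less so with torin1. For Ctsd it reports a move to heavy polysomes after 6 h of LPS, which torin1 impaired. It reports LPS-induced, apparently torin1-sensitive moves to heavy polysomes for Npc2, Cln3, Slc11a1, Slc11a2, M6pr and Ctsc, and away from them for Sgsh and Hyal1. From sequencing, the paper names M6pr, Lamp2 and Cln3 among the few lysosomal mRNAs with a significant change in translation efficiency. It also reports that torin1 almost fully reversed the LPS-induced changes in translation. The paper proposes that combining fractions can mask shifts within heavy or light polysomes. Effects near 0 here therefore do not show unchanged translation.

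For inflammatory cytokines the median change was −1.02 ± 0.38 in total and −1.12 ± 0.32 in polysome-associated mRNA, and the effect on loading was −0.05 ± 0.03 (14 of 22 listed genes counted, SD over 3 experiments). Il1b (interleukin-1β) was at −1.73 in total and −1.76 in polysome-associated mRNA, with −0.03 ± 0.21 in loading. Tnf was at −0.15 ± 0.16, Csf3, at 616, 1660 and 999 CPM in total mRNA with LPS and 614, 1115 and 1002 CPM with torin1, was the lowest in loading at −0.49 and Il18 the highest at 0.19. Chemokines were at −0.11 ± 0.10 (12 of 19 counted), from Ccl4 at −0.23 to Ccl6 at 0.17. In all 3 experiments 5 chemokines were lower and none higher, which is 41.7% and 0% beside 13.9% and 14.8% of all genes. The chemokine median was −0.17 with GC removed and −0.05 with coding length removed as well. Type I interferon-stimulated genes were at 0.10 ± 0.19 over 53 genes, with total mRNA at −0.86, from Isg20 at −0.29 to Dtx3l at 0.34. No member of these 3 classes was called in either fit.

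For targets of ATF4, the transcription factor of amino acid synthesis, the median total change was −1.04 ± 0.28 and the polysome change −1.03 ± 0.33, with 0.01 ± 0.05 in loading (20 genes, from Chac1 at −0.26 to Trib3 at 0.45). Atf4 itself, whose own translation depends on upstream reading frames, went from 752, 533 and 349 to 336, 314 and 227 CPM in total mRNA. In polysomes Atf4 had 778, 668 and 332 CPM with LPS and 241, 336 and 204 CPM with torin1, and its effect on loading was −0.28 ± 0.23 (SD), below 0 in all 3 experiments and not called. It was the lowest of the 8 mRNAs known to carry regulatory upstream reading frames, whose median was −0.07 ± 0.19 and whose highest member was Eprs at 0.19.

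Within the mTOR pathway itself the median was −0.03 ± 0.06 (39 of 42 counted), from Lamtor4, a subunit of the lysosomal scaffold of mTOR, at −0.62 to the translation inhibitor Pdcd4 at 0.29, and none was called in either fit. Lamtor4 was called when the GC trend was removed and the experiment block kept. Mtor was at −0.00 ± 0.08, Larp1 at 0.05 ± 0.13 and Rps6kb1, the S6 kinase, at 0.08 ± 0.22. Eif4ebp1, which encodes 4E-BP1, was at −0.32 ± 0.25 (SE), with 53.0 to 132.3 CPM in polysomes with LPS and 71.2, 115 and 67.3 CPM with torin1, so the groups overlapped. Odc1, the first enzyme of polyamine synthesis, was at 0.16, 0.14 and 0.12. Myc and Nfkbia were at −0.19 ± 0.14 and −0.11 ± 0.24.

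Replication-dependent histones differed most between experiments, with medians of −0.88, 0.65 and −0.50 over 56 genes, from Hist1h2bn at −0.94 to Hist1h2ae at 0.72, so no direction can be given. The other 16 classes, among them cholesterol synthesis, glycolysis, the proteasome, DNA replication and mitosis, had means between −0.10 and 0.16, and 0 of their members were called in either edgeR fit.

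**Figure D5:**
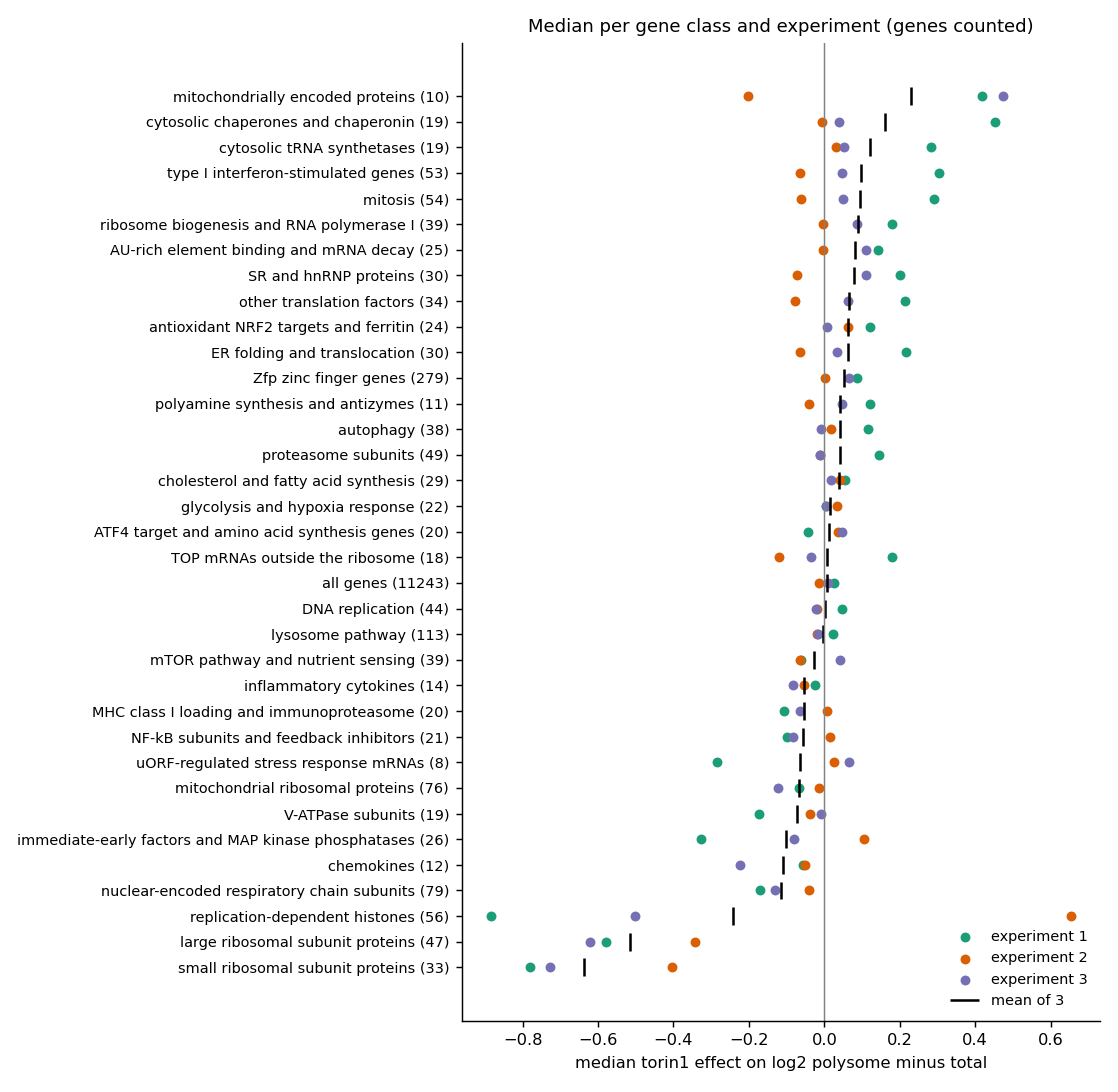
For each of 34 gene classes and all genes (number counted in brackets), points give the median torin1 effect on log2 polysome minus total in each of 3 experiments (x axis) and the bar their mean. Both ribosomal subunits stand apart at −0.64 and −0.51 with all 3 points below −0.3, and histones spread from −0.88 to 0.65.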

How the data were processed

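Ribosomal RNA was depleted and strand-marking, paired-end libraries were made by the authors, who used Hisat2 for alignment to GRCm38 and featureCounts for counting. They kept protein-coding genes with no zero count in any library, and the deposited values are these raw counts, with no normalization. A filter on zeros removes genes that were absent from any one group. Counts of 30422715 to 47725557 per library were used as deposited, and replicates differed by more than counting error (chi-square per degree of freedom of at least 38.4).

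Loading was computed from log2 CPM with edgeR's TMM scaling and a pseudocount of 0.5. The interaction of RNA type and torin1 was tested with edgeR 4.0.16 (quasi-likelihood, R 4.3.3) with each lysate as a block, with the Benjamini-Hochberg adjustment over 11243 genes. Script and test were checked on simulated counts. These had no GC trend and no differences in loading between lysates beyond the noise of single libraries, so the check does not cover such features of the data. Same-numbered libraries of both groups deviated together (correlations of 0.342 to 0.404 in total and 0.488 to 0.740 in polysome-associated mRNA, and −0.039, 0.282 and 0.387 in loading), and each number is 1 of 3 independent experiments in the study's methods, so the fit with the experiment number as a block is printed beside the main one. DESeq2 1.42.0 and limma 3.58.1 served as alternatives. Classes were described by the median over members in each experiment, with mean and SD over 3 experiments, and no set test was run.

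Class lists, members and tests were chosen with earlier results of these data known, and the lysosome list is the study's own, so it is not independent evidence. Genes were named by rule: of those called, up to 12 in each direction with 1 sign in 3 experiments and a mean of at least 50 counts, or, where fewer than 3 were called, the 6 smallest p-values; the lowest, highest and called members of each class; and genes followed by the study or central to mTOR. Rps12, Rps15, Rps3, Rps6, Rplp1, Rpl36, Rpl28, Rpl32, Rpl37, Rpl3 and Rpl4 were added after their values were seen. So were the TOP genes other than Tpt1 and Vim, and the genes called with the experiment block but not in the main fit. Lengths and GC content came from GENCODE vM21 for 11112 genes, and starts from RefSeq (GRCm38.p6) for 8985. GC and coding length trends were removed per library by lowess, in the same fit as the block, after the data were seen. Some genes that these rules name are not reported here.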

Additional observations from a re-analysis of the deposited data

How the results depend on the processing

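The number of called genes depended on the fit more than the class medians did. Against 5 lower and 0 higher genes, the fit with the replicate block of experiment number called 46 lower and 1 higher, all 18 libraries with the lysate block 25 lower, and DESeq2 41 lower and 1 higher. Of the 11243 genes, 8937 had no adjusted p in DESeq2. No replicate block (12 or 18 libraries), limma on log2 polysome minus total, analysis of partial variance and an adjusted p of 0.05 each called 0 lower genes, with 85, 110, 327 and 625 genes at an unadjusted p under 0.05 in the first 4. Leaving out 1 experiment or 1 lysate gave 0 to 285 lower and 0 to 34 higher genes, the highest of each without the torin1 lysate of experiment 2. Chosen after seeing the data, the experiment block at a mean of at least 50 counts gave 43 lower and 1 higher, GC removed 29 and 1 with the lysate block or 68 and 9 with the experiment block, and GC and coding length removed 19 and 1 or 53 and 7.

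Both ribosomal subunits kept their direction under every alternative run. Classes near 0 moved. With GC removed the medians were 0.0664 for ATF4 targets, 0.000243 for mRNA decay, 0.0250 for MHC class I loading, 0.0541 for glycolysis, −0.0102 for cytokines and 0.0198 for the lysosome pathway. With coding length removed as well they were −0.0234 for mRNA decay, 0.0323 for MHC class I loading, −0.019 for Zfp genes, 0.0395 for glycolysis, 0.0285 for cytokines, 0.00526 for mitochondrial ribosomal proteins and −0.0134 for the respiratory chain. Without a replicate block cholesterol synthesis was at 0.0157. Leaving out 1 experiment gave −0.0367 to 0.0572 for DNA replication, 0.0180 to 0.134 for antioxidant genes, −0.0124 to 0.109 for autophagy, −0.154 to −0.0116 for chemokines, 0.0129 to 0.0905 for cholesterol synthesis, 0.0026 to 0.0615 for glycolysis, −0.0853 to 0.00315 for cytokines, −0.0350 to 0.0448 for the lysosome pathway, −0.0941 to 0.0029 for mitochondrial ribosomal proteins and −0.0189 to 0.0479 for all genes. The causes were not tested. A pyrimidine run anywhere within 5 bases of the start was present in 47.46% of ribosomal protein genes and 26.73% of others. There were 3 experiments, with GC trends of unlike sign, and few single genes were called. Of the 80 ribosomal protein genes the lysate-block fit called 3 and the experiment-block fit 37, with 10 genes outside the lists in the latter. Why so few were called was not tested. A change common to all mRNAs cannot be seen.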
